A study of Mus musculus with 10 samples.

Results

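HEB binding in cells differentiated with the inhibitor SB431542 (Endoderm+SB) was compared with HEB binding in the embryonic stem cells (ESCs) they came from, to ask whether ESC sites were kept or other sites were taken. HEB was mapped by ChIP-seq, in which DNA bound by a protein is pulled down with an antibody and sequenced, and the measurements were the authors' lists of enriched regions on mouse genome build mm9. Every region of both lists was used, 1 entry per region and with mitochondrial regions left out: 10145 of Endoderm+SB HEB and 17222 of ESC HEB, together 27367 of the 78261 regions in the 6 ChIP lists of the series. A region was called shared when it overlapped a region of the other list by at least 1 bp. Endoderm+SB cells were CGR8 ESCs moved to serum-free N2/B27 medium, given Activin A at 100 ng/ml together with SB431542 at 10 µM from day 2, as far as the labels' wording allows, and taken after 48 hours at day 4. ESCs were untreated CGR8 cells grown without feeders in serum with LIF. CGR8 is a single mouse ESC line, the labels call the differentiated cells ESC-derived endoderm, and no expression was measured here by which that name could be checked. There was 1 HEB library per group, so the comparison is of these libraries, no spread between replicates was measurable, and no p-value is given. The intervals below are exact Clopper-Pearson 95% intervals and cover counting error only.

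HEB is the E protein encoded by Tcf12. E proteins are basic helix-loop-helix (bHLH) transcription factors that bind E-box sequences, CANNTG, as dimers with each other or with tissue-specific bHLH partners such as the proneural factors, and Id proteins hold them off DNA. Activin and Nodal signal through type I receptor kinases to SMAD2 and SMAD3. SB431542 blocks those kinases, and blocking them in differentiating ESCs is known to favour neuroectoderm over mesoderm and endoderm.

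For 6 genes the promoter windows are printed below as examples. Most regions of both lists lay away from promoters, and no sequence inside a HEB region was read. Each runs from 250 bases before to 50 after a RefSeq start (GRCm38.p6), 5′ to 3′ on the gene's strand, with each CANNTG match in capitals. The authors' region positions are on mm9, so the windows are placed by gene name and not by overlap. Sox2, Neurog1 and Gsc were listed for HEB in both groups, Hes5 and Tcf3 in Endoderm+SB only and Zfp42 in ESCs only. The Endoderm+SB region of Sox2 lay 373 bp from its 5′ end, farther than the 250 bases the window reaches.
Sox2, chr3:34649745-34650044, plus strand: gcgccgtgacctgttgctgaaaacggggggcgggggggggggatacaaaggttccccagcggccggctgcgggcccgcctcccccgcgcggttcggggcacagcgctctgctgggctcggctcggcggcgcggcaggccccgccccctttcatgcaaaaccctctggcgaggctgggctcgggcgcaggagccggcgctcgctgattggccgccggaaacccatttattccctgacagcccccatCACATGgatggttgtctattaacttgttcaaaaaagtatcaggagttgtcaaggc
Neurog1, chr13:56252131-56252430, minus strand: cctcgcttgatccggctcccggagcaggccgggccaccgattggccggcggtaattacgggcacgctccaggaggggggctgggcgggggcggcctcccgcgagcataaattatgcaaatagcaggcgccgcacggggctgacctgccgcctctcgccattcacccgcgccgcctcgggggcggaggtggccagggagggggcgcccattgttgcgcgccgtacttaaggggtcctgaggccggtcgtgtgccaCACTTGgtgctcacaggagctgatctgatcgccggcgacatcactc
Gsc, chr12:104473187-104473486, minus strand: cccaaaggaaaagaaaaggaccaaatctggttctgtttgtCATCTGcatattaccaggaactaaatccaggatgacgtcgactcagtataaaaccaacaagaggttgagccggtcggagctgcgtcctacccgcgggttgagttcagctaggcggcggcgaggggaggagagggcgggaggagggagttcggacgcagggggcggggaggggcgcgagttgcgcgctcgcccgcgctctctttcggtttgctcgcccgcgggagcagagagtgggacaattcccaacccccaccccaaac
Hes5, chr4:154960673-154960972, plus strand: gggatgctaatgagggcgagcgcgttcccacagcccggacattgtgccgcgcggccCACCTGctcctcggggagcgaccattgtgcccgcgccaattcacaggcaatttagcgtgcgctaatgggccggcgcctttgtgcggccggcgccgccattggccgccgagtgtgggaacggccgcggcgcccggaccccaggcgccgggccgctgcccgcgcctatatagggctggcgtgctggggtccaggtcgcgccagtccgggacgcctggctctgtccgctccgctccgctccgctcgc
Tcf3, chr10:80433586-80433885, minus strand: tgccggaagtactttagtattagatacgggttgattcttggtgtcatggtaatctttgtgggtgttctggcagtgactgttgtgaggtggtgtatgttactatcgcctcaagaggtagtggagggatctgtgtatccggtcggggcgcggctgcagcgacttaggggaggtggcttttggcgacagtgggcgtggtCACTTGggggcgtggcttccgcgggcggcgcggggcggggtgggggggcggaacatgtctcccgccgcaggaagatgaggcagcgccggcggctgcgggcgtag
Zfp42, chr8:43306960-43307259, minus strand: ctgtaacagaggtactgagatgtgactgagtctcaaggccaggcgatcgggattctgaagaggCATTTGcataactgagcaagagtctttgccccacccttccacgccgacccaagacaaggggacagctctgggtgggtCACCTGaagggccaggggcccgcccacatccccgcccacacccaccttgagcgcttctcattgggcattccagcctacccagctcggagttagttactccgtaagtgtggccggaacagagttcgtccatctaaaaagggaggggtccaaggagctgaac
Zfp42 held 2 matches to CANNTG and each of the other 5 windows held 1. CANNTG reads the same on both strands. It was found in 63.5% of 1464 promoter windows of genes with promoter-proximal HEB in both groups and in 61.4% of 2437 windows of genes with it in Endoderm+SB only, against 72.3% of all 32851 RefSeq windows. CAGCTG or CAGGTG, searched on both strands, was in 31.4%, 28.9% and 32.9% of the same windows. The median G and C content of these windows was 62%, 63.7% and 52.7%. Windows were found for 80.6% and 81.5% of the genes of the first 2 classes. For genes with promoter-proximal HEB in ESCs only they were found for 73.5%, under the minimum of 80% set for such a check, so it is void for that class.

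Few sites were common to the 2 lists. Of the Endoderm+SB HEB regions, 2994 of 10145 overlapped an ESC HEB region, which is 29.5% of that list (28.6 to 30.4%). The other 7151 regions, 70.5% of the list, were at positions with no ESC region. Of the ESC HEB regions, 2985 of 17222 overlapped an Endoderm+SB region, which is 17.3% of that list (16.8 to 17.9%), and 14237 (82.7%) did not. Unshared regions were mostly far from the other list. The nearest ESC region lay a median of 44.5 kb from an unshared Endoderm+SB region and within 10 kb for 20.9% of them, and the nearest Endoderm+SB region lay a median of 40.7 kb from an unshared ESC region and within 10 kb for 21.4%.

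The lists differed in the tags their regions held and the length they covered. Tags are counted here within listed regions only, so they do not measure the depth of a library. Endoderm+SB HEB regions held 2141712 ChIP tags over 6217 kb, with a median of 155 ChIP and 18 background tags, and ESC HEB regions held 4810688 ChIP tags over 11028 kb, with a median of 176 ChIP and 23 background tags. The lowest ChIP height, the authors' value at the top of a region, was 25.0 in both lists, so a site missing from a list can still carry ChIP signal under that height. Fewer cells with a bound site and less binding in each cell cannot be told apart in such samples. With only the 10145 highest regions of each list, 18.9% of the Endoderm+SB regions and 18.6% of the ESC regions were shared.

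Promoter sites were shared more often than sites elsewhere, and the gap was wider for ESC sites. A region counts here as promoter-proximal when it lies no more than 1 kb from the start of a gene listed for it. In the Endoderm+SB list 1262 of 3497 promoter-proximal regions were shared with ESCs (36.1%, 34.5 to 37.7%), against 1732 of the other 6648 (26.1%, 25.0 to 27.1%). In the ESC list 1268 of 3054 promoter-proximal regions were shared with Endoderm+SB (41.5%, 39.8 to 43.3%), against 1717 of the other 14168 (12.1%, 11.6 to 12.7%). Regions with no gene listed were shared at 26.1% in Endoderm+SB and 12.7% in ESCs, close to the 26.0% and 11.4% of regions elsewhere in or near a gene. Put by class, 42.2% of shared Endoderm+SB regions were promoter-proximal, against 31.3% of its unshared regions, and 42.5% of shared ESC regions, against 12.5% of its unshared regions. With lists of equal length the Endoderm+SB order turned, at 17.7% of promoter-proximal and 19.6% of other regions, and the ESC order held, at 42.8% and 14.6%. In the upper 50% of each list 25.9% of promoter-proximal ESC regions were shared.

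Over a whole list sharing differed little with the height of a site, and differed more once location was held fixed. Each list was divided into 5 equal parts by ChIP height, called quintiles. From the lowest to the highest quintile, 24.2%, 27.6%, 31.6%, 33.3% and 30.9% of Endoderm+SB regions were shared, and 15.0%, 15.9%, 17.6%, 16.8% and 21.4% of ESC regions. The highest quintile began at a height of 52.6 in Endoderm+SB and 64.3 in ESCs. Promoter-proximal regions made up 46.2% of the lowest and 10.7% of the highest quintile of Endoderm+SB, and 23.5% and 11.0% of those of ESCs, so location was also taken within quintiles. Among promoter-proximal Endoderm+SB regions the shared part was 24.5%, 28.7%, 39.2%, 51.8% and 62.7% over the quintiles. For the other Endoderm+SB regions it stayed between 23.9% and 27.0%. The ESC list was the other way round. Its promoter-proximal regions were shared at 37.0% to 47.1% in every quintile with no steady order, while its other regions were shared at 7.63% in the lowest and 18.2% in the highest quintile. Even there, 2506 of the 3065 ESC regions away from promoters and of the highest height had no Endoderm+SB region.

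**Figure D1:**
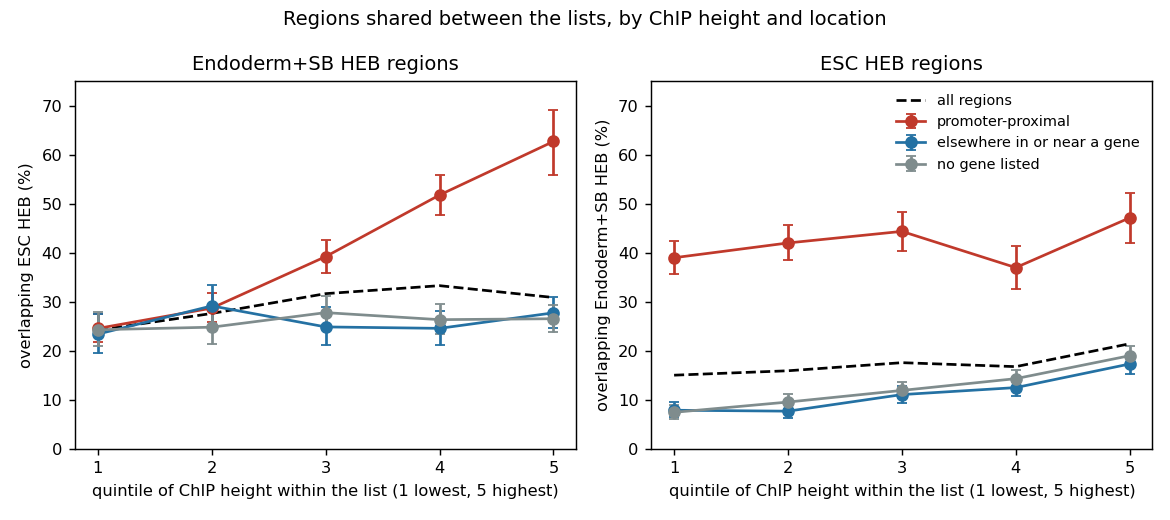
Share of Endoderm+SB HEB regions that overlap ESC HEB (left, %) and of ESC HEB regions that overlap Endoderm+SB HEB (right, %), by quintile of ChIP height within the list and by location; bars are exact 95% intervals for counting error. Promoter-proximal Endoderm+SB regions reach 62.7% in the highest quintile, and the highest ESC quintile reaches 17.3% elsewhere in or near a gene and 19.0% with no gene listed.

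The order over quintiles depended on the measure of strength. When quintiles were made from tag enrichment, the authors' ratio of ChIP to background tags, shared regions made up 36.7% of the lowest and 20.7% of the highest quintile of Endoderm+SB, and 25.5% and 17.1% of those of ESCs. By this measure the shares within locations also differed. Promoter-proximal Endoderm+SB regions were shared at 33.8% in the lowest and 46.4% in the highest enrichment quintile, and its other regions at 42.8% and 19.1%. Promoter-proximal ESC regions were shared at 52.2% in the lowest and 35.7% in the highest, and its other regions at 11.7% and 15.4%. Promoter-proximal ESC regions, which had no steady order by height, were thus shared less in the highest than in the lowest enrichment quintile. The even level by height of the other Endoderm+SB regions was not seen. Background tags moved with sharing: the median was 21 in shared and 17 in unshared Endoderm+SB regions, and 29 and 22 in shared and unshared ESC regions. Shared regions were also wider, with medians of 580 and 543 bp in Endoderm+SB and 594 and 498 bp in ESCs. The part of background and width in the shared calls was not tested.

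Where a site was listed in both groups its summit sat at nearly the same base, but its height in one group told little of its height in the other. The 3046 overlapping pairs had peak positions a median of 22 bp apart, and 2617 of them (85.9%) lay within 250 bp. Median ChIP heights were 35.9 in Endoderm+SB and 39.7 in ESCs. The median log2 ratio of Endoderm+SB over ESC height was -0.11, with quartiles of -0.69 and 0.26, and no scaling between the libraries is stated. Height was more than 2-fold higher in Endoderm+SB at 194 pairs and more than 2-fold lower at 533. At promoter-proximal pairs the median log2 ratio was 0.01, against -0.21 elsewhere in or near a gene and -0.30 where no gene was listed. Across the 3046 pairs, which come from the same pair of libraries, Spearman's rho of the heights was 0.26, given as a description. Of 779 pairs whose ESC region was in the highest quintile of its list, 281 were also in the highest Endoderm+SB quintile and 94 in the lowest.

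**Figure D2:**
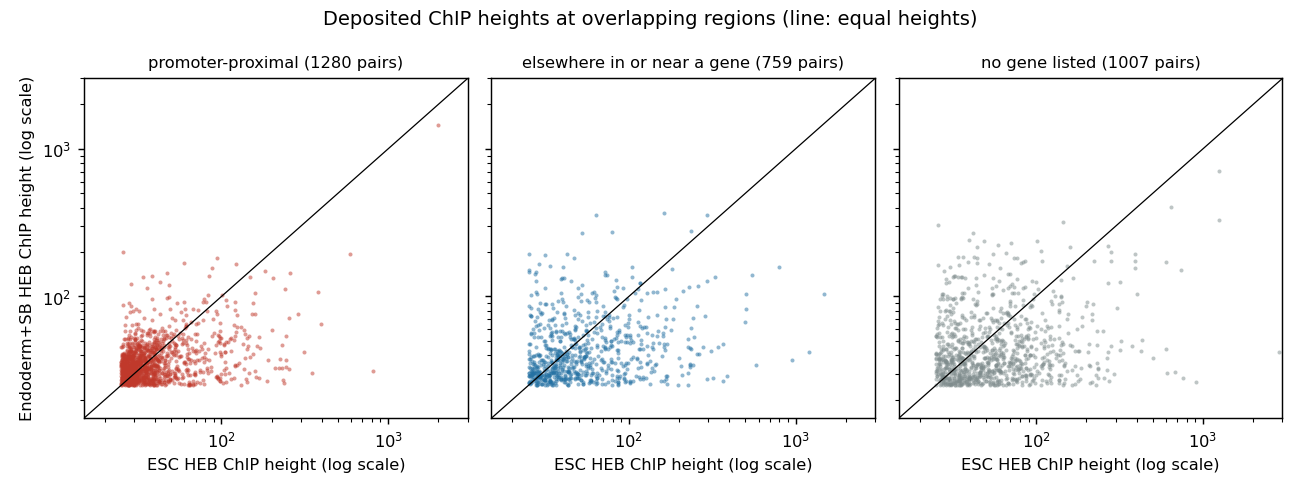
Deposited ChIP height of Endoderm+SB HEB (vertical, log scale) against ESC HEB (horizontal, log scale) at the 3046 overlapping pairs, one point per pair, by location, with the line of equal heights. Points scatter widely around the line. Endoderm+SB height was more than 2-fold lower at 126 of 1280 promoter-proximal pairs and more than 2-fold higher at 28. These numbers were 169 and 63 of 759 pairs elsewhere in or near a gene, and 238 and 103 of 1007 with no gene listed.

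At gene level the lists were closer than at site level. The authors name a gene for each region inside its span or no more than 1 kb outside. By that assignment 5226 genes had Endoderm+SB HEB and 5502 had ESC HEB, and 2743 had both, which is 49.9% of the ESC genes. A further 2483 genes were listed in Endoderm+SB only (47.5% of its genes) and 2759 in ESCs only (50.1% of its genes). Of the genes listed in both, 1893 (69.0%) had regions that overlapped, and at the other 850 the regions lay apart.

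The 4 marker genes split between these classes. Sox2, a transcription factor of pluripotent and neural progenitor cells, had 1 region in each group and they overlapped. The Endoderm+SB region (chr3:34547087-34548554) had a ChIP height of 82.4 with 529 ChIP and 65 background tags, and the ESC region (chr3:34547447-34549041) a height of 60.7 with 409 and 52 tags. Sall4, a zinc finger factor of the pluripotency network, had 4 Endoderm+SB regions, with heights of 76.5, 55.4, 51.1 and 41.4, and 3 ESC regions, with heights of 44.3, 56.2 and 34.5. All 3 ESC regions of Sall4 were shared, and the highest Endoderm+SB region (chr2:168587826-168588872) was not. Neurog1, a proneural bHLH factor, had a region over its 5′ end in both groups, with a height of 25.7 in Endoderm+SB (chr13:56353194-56354024) and 43.3 in ESCs (chr13:56352341-56354131). A second Neurog1 region at a height of 36.0 was listed in Endoderm+SB only. Zfp42, which encodes the naive ESC marker REX1, had no Endoderm+SB region and 1 ESC region over its 5′ end (chr8:44392253-44392894), with a height of 54.6 and 251 ChIP against 28 background tags.

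**Figure D3:**
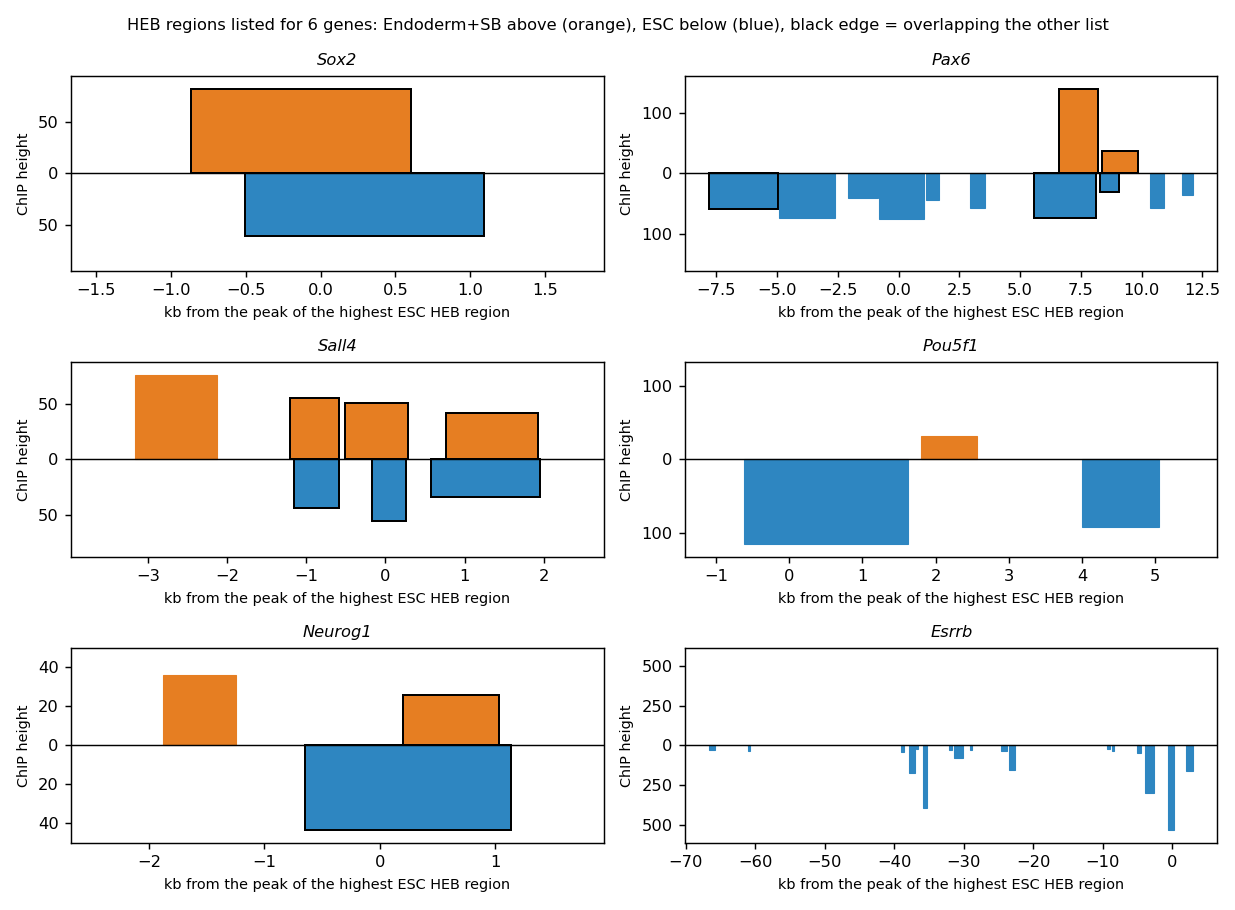
HEB regions listed for 6 genes, with Endoderm+SB regions above the line and ESC regions below it; the horizontal axis is distance in kb from the peak of the highest ESC region, bar width is region width and bar height is the deposited ChIP height, on an axis scaled for each gene. Black edges mark regions that overlap the other list, including 1 ESC region of Pax6 whose Endoderm+SB partner is not listed for that gene. Sox2 sites coincide, as do Sall4 sites apart from its highest Endoderm+SB region. Pou5f1 sites lie side by side, and Esrrb has ESC regions only.

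Genes of the naive pluripotency network were mostly listed in ESCs only. Of 22 pluripotency genes, 6 were listed in both groups, 0 in Endoderm+SB only, 13 in ESCs only and 3 in neither, so 31.6% of the 19 listed in ESCs were also listed in Endoderm+SB, against 49.9% of all ESC genes. Their ESC regions were kept at 10 of 53, near the 17.3% of all ESC regions. Esrrb, a nuclear receptor of naive ESCs, had 0 Endoderm+SB regions and 17 ESC regions, with a highest ChIP height of 533. Nanog had 1 ESC region over its 5′ end (chr6:122657031-122657718, height 129). Utf1, Tdgf1 and Tfcp2l1 were likewise listed in ESCs only, with highest tag enrichments of 23.2, 23.1 and 21.6. Pou5f1, which encodes OCT4, was listed in both groups, but its Endoderm+SB region, of height 31.1 (chr17:35643859-35644623), lay between ESC regions of heights 115 and 92.3 and overlapped neither. Lin28a, an RNA-binding protein that blocks let-7 maturation, had 6 Endoderm+SB regions, 3 of them shared, with a highest tag enrichment of 41.3 and height of 201, and 3 ESC regions, all shared, with a highest enrichment of 8.48 and height of 61.8. Tbx3, a T-box factor, reached enrichments of 12.4 in Endoderm+SB and 16.0 in ESCs, at different sites. At equal list length 6 of these genes were in both and 9 in ESCs only, beside 1730 and 1615 of all genes. In the upper 50% of each list they numbered 4 and 11, beside 947 and 1949 of all genes, a smaller gap than in the full lists.

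Neuroectoderm genes were mostly listed in both groups. Of 28 such genes 20 were listed in both groups, all 20 with overlapping regions, 1 in Endoderm+SB only, 5 in ESCs only and 2 in neither. That is 20 of the 25 listed in ESCs, against 49.9% of all ESC genes, and 38 of their 87 ESC regions (43.7%) were kept, against 17.3% of all ESC regions. Ribosomal protein genes, taken as a set of active promoters, had as large a share, with 8 of the 10 listed in ESCs in both and 6 of 10 ESC regions kept. Pax3, a paired-box factor of the dorsal neural tube, had 8 Endoderm+SB regions and 4 ESC regions, with 3 shared on each side. At 1 shared Pax3 site the Endoderm+SB region (chr1:78178412-78178854) held 416 ChIP and 7 background tags at a height of 165, and the ESC region (chr1:78178531-78178742) 65 and 11 tags at a height of 29.0. The ESC region over the 5′ end of Pax3, of height 79.2, had no Endoderm+SB counterpart. Pax6, a paired-box factor of eye and forebrain, had the opposite balance, with 2 Endoderm+SB regions, the higher at 140, and 10 ESC regions, the highest at 76.0. Pax7 and Meis1, further homeobox factors of the neural tube, reached tag enrichments of 31.5 and 31.4 in Endoderm+SB and 22.6 and 20.0 in ESCs. At each of these genes the most enriched regions of the groups were different sites. The one gene of this list in Endoderm+SB only was Sox3, a SOX factor of neural progenitors, with 2 regions and heights of 54.3 and 28.5. ESCs only held Sox1, Msx1, En2, En1 and Gbx2, and 1 of the 3 ESC regions of Sox1 overlapped an Endoderm+SB region not listed for it. In the upper 50% of each list the count in both was 13 and in ESCs only 10, beside 947 and 1949 of all genes.

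The products of proneural bHLH genes can pair with HEB. Of 16 such genes 5 were listed in both groups, 0 in Endoderm+SB only, 5 in ESCs only and 6 in neither, so 5 of the 10 listed in ESCs were in both, at the level of the 49.9% of all ESC genes. Among those in both were Neurog1, Neurog2, Neurod1 and Atoh1, with highest Endoderm+SB tag enrichments of 5.53 (Atoh1) to 8.94 (Neurog1), and the Neurog2 regions did not overlap. Neurog3, a factor of endocrine pancreas, and Bhlhe22 were listed in ESCs only, with enrichments of 20.5 and 18.2. Of 7 E protein and Id genes 4 were listed in both, 2 in Endoderm+SB only, 0 in ESCs only and 1 in neither. All 4 listed in ESCs were thus in both, against 49.9% of all ESC genes. Of the 6 listed in Endoderm+SB, 2 were in that list only, against 47.5% of all Endoderm+SB genes. Id1 had 1 shared Endoderm+SB region (chr2:152560524-152561186) with 560 ChIP and 16 background tags at a height of 143, and 2 ESC regions at heights of 259 and 218. Tcf12, the gene of HEB itself, had 6 Endoderm+SB regions, with heights of 25.7 to 81.2, and 0 ESC regions. Of those 6 the lowest lay over the 5′ end (chr9:71959568-71960144) and the highest 214001 bp from it (chr9:71745303-71745625, 206 ChIP and 11 background tags). Tcf3, which encodes the E proteins E12 and E47, had 1 Endoderm+SB region over its 5′ end, at a height of 33.7 and an enrichment of only 4.57.

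Notch signalling holds neural progenitors undifferentiated. Of 18 Notch and Hes genes 9 were listed in both groups, 1 in Endoderm+SB only, 4 in ESCs only and 4 in neither, so 69.2% of those listed in ESCs were in both, against 49.9% of all ESC genes. In the upper 50% of each list 4 were in both and 9 in ESCs only, near the balance of all genes, at 947 and 1949. Hes1, a bHLH repressor downstream of Notch, had 4 regions in each group, and all 8 were shared. Its Endoderm+SB heights were 58.7, 25.2, 28.6 and 25.3, and the ESC heights at the same sites 39.8, 27.7, 31.4 and 35.3. Jag1, a Notch ligand, had 6 Endoderm+SB regions with heights of 36.2 to 134 and 1 ESC region at 39.7, which was shared. Notch2, a receptor, reached enrichments of 23.6 in Endoderm+SB and 11.3 in ESCs, and Lfng, which glycosylates Notch, 10.2 and 28.3. Hes5, a Notch target of neural progenitors, was the one member in Endoderm+SB only, with a region over its 5′ end (chr4:154334520-154335422) of height 40.9 with 214 ChIP and 27 background tags. Hes6, Hey2, Notch3 and Dll4 were listed in ESCs only.

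The Nodal and activin pathway as a whole stood near the background. Of 25 genes 8 were in both groups, 3 in Endoderm+SB only, 9 in ESCs only and 5 in neither, so 47.1% of those listed in ESCs were in both, against 49.9% of all ESC genes. Of its 38 ESC regions 7 (18.4%) were kept, against 17.3% of all ESC regions. In the upper 50% of each list 2 of its genes were in both and 10 in ESCs only, beside 947 and 1949 of all genes. The ligands Nodal and Gdf3, the co-receptor Tdgf1 (Cripto), the antagonists Lefty1, Lefty2 and Fst, and the SMAD partner Foxh1 were in ESCs only. Smad4, the common SMAD, was also in ESCs only, and the activin subunit genes Inhba and Inhbb and the receptor gene Acvr2a were in neither. Highest ESC heights were 28.2 at Fst, 154 at Nodal, 195 at Tdgf1 and 449 at Lefty1. Pmepa1, a feedback inhibitor, had 0 Endoderm+SB and 9 ESC regions, with ESC heights of 28.9 to 110. Acvr2b, a type II receptor, Smad2 and Bambi, a decoy receptor, were in Endoderm+SB only, at highest heights of 30.0, 27.0 and 30.9. Among genes in both, the transcriptional repressors Tgif1, Skil and Tgif2 reached enrichments of 15.6, 12.2 and 12.0 in Endoderm+SB and 9.54, 12.8 and 4.98 in ESCs. For Tgif2 these values were at different sites. Ski, another SMAD repressor, had its highest regions at different sites. The Endoderm+SB region, of height 28.9, lay 443 bp from the 5′ end. The ESC region, of height 976, lay 58074 bp from it, and neither region was shared.

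Wnt pathway genes held the most listings in Endoderm+SB only of the 12 gene lists. Of 24 members 11 were in both groups, 7 in Endoderm+SB only, 5 in ESCs only and 1 in neither, so 7 of the 18 listed in Endoderm+SB were absent from the ESC list, a smaller share than the 47.5% of all Endoderm+SB genes. The 7 were the destruction complex and feedback genes Axin1, Axin2, Nkd1 and Znrf3, beta-catenin itself (Ctnnb1), the receptor Fzd2 and the secreted antagonist Sfrp2. All but Sfrp2 had an Endoderm+SB region over the 5′ end, with highest heights of 27.6 (Axin1) to 74.8 (Znrf3). Lgr4, an R-spondin receptor, Tcf7l1, the TCF repressor of ESCs, and the receptors Fzd8 and Fzd7 led the genes in both. Their highest enrichments were 33.9, 26.1, 24.0 and 16.1 in Endoderm+SB and 23.7, 9.58, 8.08 and 7.53 in ESCs. The most enriched regions of Lgr4 and Fzd8 overlapped between the groups, and those of Tcf7l1 and Fzd7 did not. At the shared Tcf7l1 site of the highest Endoderm+SB region (chr6:72627090-72628262) heights were 181 in Endoderm+SB and 47.0 in ESCs. The ligand Wnt5a and the factors Sp8 and Lef1 were listed in ESCs only. At equal list length this order turned: 5 Wnt genes were in both and 13 in Endoderm+SB only, 13 of 18, against 3496 of all 5226 Endoderm+SB genes.

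Fewer endoderm and mesoderm genes were listed in Endoderm+SB than in ESCs. Of 20 definitive endoderm genes 4 were in both groups, 1 in Endoderm+SB only, 8 in ESCs only and 7 in neither, so 33.3% of those listed in ESCs were in both, against 49.9% of all ESC genes. Those in both were Eomes, Gsc, Gata4 and Lhx1. Eomes, a T-box factor needed for definitive endoderm, had 1 Endoderm+SB region (chr9:118395924-118396369, height 79.0, 312 ChIP and 14 background tags) and 4 ESC regions. That site, 8617 bp from the 5′ end, had a height of 37.1 in ESCs, while the ESC regions at and beside the 5′ end, with heights of 42.5 and 107, were not shared. Frzb, a secreted Wnt antagonist, was in Endoderm+SB only, with a region 759 bp from its 5′ end at a height of 161 and an enrichment of 37.3. Sox17, Foxa1, Foxa2, Gata6, Dkk1, Prdm1 and Krt8 were among those in ESCs only, with highest heights of 36.5 (Prdm1) to 97.6 (Sox17), and 1 ESC region of Foxa1 overlapped an Endoderm+SB region not listed for it. Of 23 mesoderm genes 6 were in both, 0 in Endoderm+SB only, 11 in ESCs only and 6 in neither, a share in both of 35.3%. Snai1, a repressor of epithelial genes, had 2 regions in each group, all shared, and the higher site stood at 67.1 in Endoderm+SB (chr2:167365573-167366571) and 499 in ESCs (chr2:167365305-167366607). T, which encodes Brachyury, was in ESCs only at a height of 52.2. The lower mesoderm share was not kept with shorter lists. At equal list length 5 mesoderm genes were in both and 5 in ESCs only, beside 1730 and 1615 of all genes. In the upper 50% of each list they numbered 4 and 4, beside 947 and 1949 of all genes.

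Patterning genes that Polycomb repressive complex 2 (PRC2), a complex that marks silent genes, is known to occupy in ESCs were also listed mostly in ESCs. Of 34 genes 10 were in both groups, 0 in Endoderm+SB only, 19 in ESCs only and 5 in neither, so 34.5% of those listed in ESCs were in both, against 49.9% of all ESC genes. At equal list length 10 were in both and 18 in ESCs only, beside 1730 and 1615 of all genes. In the upper 50% of each list they numbered 7 and 19, beside 947 and 1949 of all genes, a smaller gap than in the full lists. The 15 Endoderm+SB regions of the PRC2 list fell mostly on ESC sites, with 2 unshared, against 70.5% unshared among all Endoderm+SB regions. That shared part was 86.7% (59.5 to 98.3%), and it was 66.7% for the pluripotency, neuroectoderm, proneural, definitive endoderm and mesoderm lists. The lowest of the gene lists was E protein and Id, at 38.5%. Of the ESC regions of the PRC2 list, 12 of 72 (16.7%) were kept, close to the 17.3% of all ESC regions. Bmi1, which encodes a subunit of the other Polycomb complex, PRC1, had 2 Endoderm+SB regions, both shared, and 5 ESC regions, with highest heights of 117 and 259 at the same site (chr2:18605700-18606111 in Endoderm+SB). Pax9, a paired-box factor, had a highest height of 65.4 in Endoderm+SB and 395 in ESCs. The ESC-only genes were homeobox and other patterning genes led by Hoxc9, Evx2, Hoxd13 and Pax1, with enrichments of 24.3, 19.4, 19.0 and 17.0. Extraembryonic genes numbered 3 in both, 1 in Endoderm+SB only, 5 in ESCs only and 7 in neither of 16. Of the 8 listed in ESCs 37.5% were in both, against 49.9% of all ESC genes. Of the 4 listed in Endoderm+SB, 1 was in that list only, against 47.5% of all Endoderm+SB genes. Ribosomal protein genes numbered 8 in both, 4 in Endoderm+SB only, 2 in ESCs only and 16 in neither of 30, with Endoderm+SB enrichments of 3.25 (Rpl19) to 10.2 (Rpl18).

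**Figure D4:**
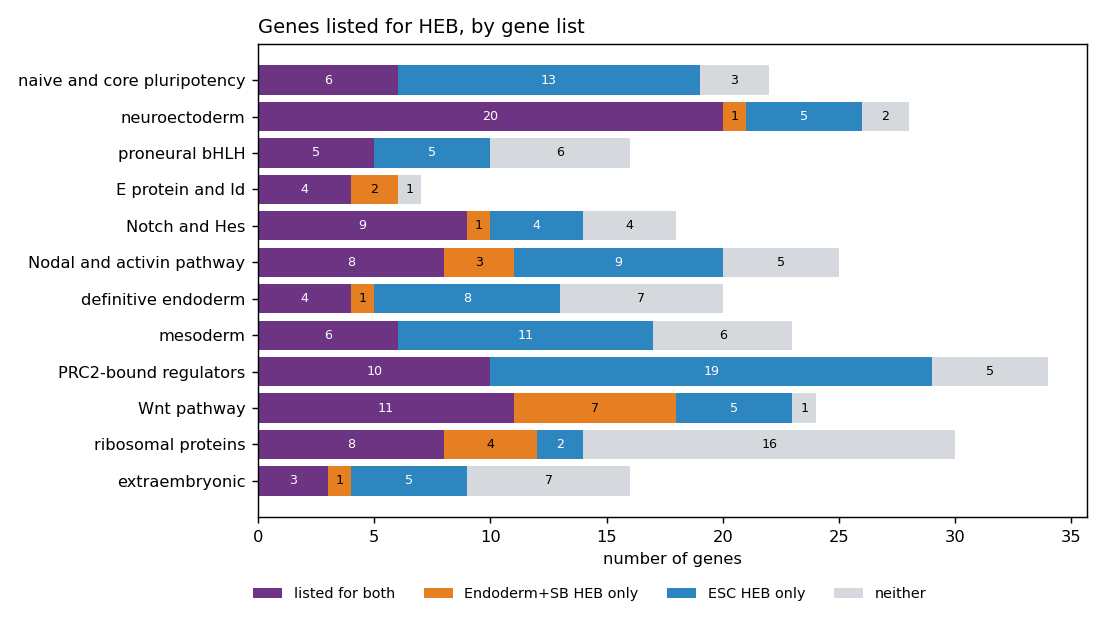
Number of genes of each of 12 lists that were listed for HEB in both groups, in Endoderm+SB only, in ESCs only or in neither (horizontal axis, number of genes). Neuroectoderm has 20 of 28 genes in both, and pluripotency, mesoderm and PRC2-bound regulators have 0 in Endoderm+SB only.

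The highest tag enrichments at listed genes were away from promoters in every class. Among shared Endoderm+SB regions of the highest height quintile with a gene listed, the highest tag enrichments were at Pax3 (53.5), Plekha1, which encodes a lipid-binding adaptor (47.8), the long non-coding RNA gene Sox2ot that surrounds Sox2 (43.0), the PRC2 cofactor gene Jarid2 (41.7), Lin28a (41.3) and the docking protein gene Dok5 (39.8). Among unshared Endoderm+SB regions they were at Atp8a2, a phospholipid flippase (96.6, chr14:60355511-60357177, 3285 ChIP and 34 background tags), Cadps, a protein of vesicle exocytosis (74.9), Lrba (67.8), the zinc finger repressor Zbtb16 (62.2), Greb1 (58.2) and E330013P04Rik (56.9). Among unshared ESC regions they were at Tiam2, an exchange factor for Rac (139, chr17:3410295-3410700, 1390 ChIP and 10 background tags), Ubxn11 (135), Tecr, an enzyme of fatty acid elongation (101), Nkain3 (84.9), Meis2 (81.7) and Camta1 (76.7). Of these 18 regions the nearest to a 5′ end was that of Lin28a, at 1711 bp.

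The remaining HEB lists of the series placed the unshared sites. Endoderm HEB came from cells given Activin A without SB431542, and ESC+SB HEB from ESCs given SB431542 at 10 µM for 24 hours. Endoderm HEB had 18981 regions with a lowest ChIP height of 25.0, and ESC+SB HEB 16769 with a lowest of 28.0. Overlaps with these lists thus rest on unlike height minimums. Of the 7151 unshared Endoderm+SB regions 34.0% overlapped Endoderm HEB (32.9 to 35.1%), 15.9% overlapped ESC+SB HEB (15.0 to 16.7%) and 4109 (57.5%) overlapped neither. Location split them. Away from promoters 37.2% were in Endoderm HEB and 4.84% in ESC+SB HEB, and at promoters 26.9% and 40.1%. In the highest quintile of ChIP height 50.7% of unshared Endoderm+SB regions were in Endoderm HEB and 4.49% in ESC+SB HEB. Of the 14237 unshared ESC regions 22.1% were in Endoderm HEB (21.4 to 22.8%) and 71.4% in ESC+SB HEB (70.6 to 72.1%). In the highest ESC quintile 97.9% of unshared regions were in ESC+SB HEB and 35.9% in Endoderm HEB. Of the shared Endoderm+SB regions 79.8% were in Endoderm HEB, 91.4% in ESC+SB HEB and 74.5% in both. Single genes showed both patterns. Esrrb had 0 Endoderm+SB and 17 ESC regions, beside 6 in Endoderm HEB and 17 in ESC+SB HEB. Jag1 had 6 Endoderm+SB and 1 ESC region, beside 3 and 1. Tcf12 had 6 Endoderm+SB and 0 ESC regions, beside 0 and 1, and Hes5 had 1 and 0, beside 0 and 0.

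**Figure D5:**
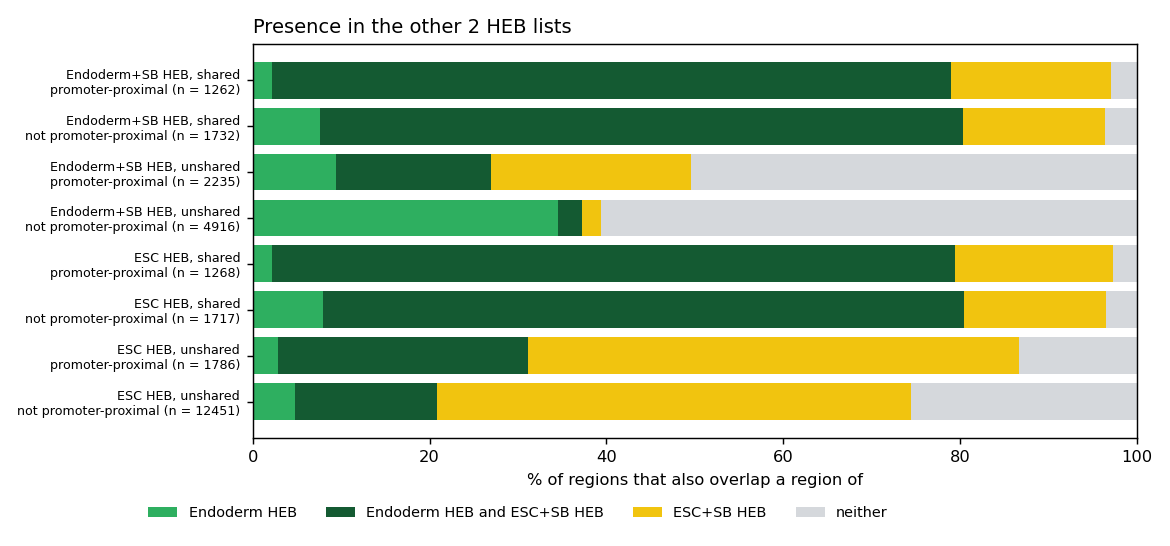
Share (%) of Endoderm+SB HEB and ESC HEB regions, split by whether they are shared and by location, that also overlap Endoderm HEB only, both Endoderm HEB and ESC+SB HEB, ESC+SB HEB only, or neither; n is the number of regions. Unshared Endoderm+SB regions away from promoters overlap Endoderm HEB in 37.2% and ESC+SB HEB in 4.84%, and unshared ESC regions mostly overlap ESC+SB HEB.

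ESC HEB sites were also split by ESC SMAD2/3. Of 3414 ESC HEB regions overlapping an ESC SMAD2/3 region 20.8% were kept in Endoderm+SB (19.5 to 22.2%), against 16.5% of the 13808 without one (15.9 to 17.1%). The same order held at promoters, at 52.7% and 39.6%, and elsewhere, at 15.9% and 11.1%. The regions with SMAD2/3 were also higher, with median ChIP heights of 63.4 and 34.7, and the part of height in this difference was not tested.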

How the data were processed

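Reads came from a Genome Analyzer II, per the labels. CASAVA 1.8.2 and mm9 are named in the submitters' processing notes. The peak caller was not stated in any source used here. Per the file headers, the authors deposited for each region a count of ChIP tags and a count of background tags, both whole numbers. The authors' ratio of the 2 counts (tag enrichment) was their plain quotient in 91.2% of Endoderm+SB HEB and 94.7% of ESC HEB regions. The deposited signal is the ChIP height at the top of a region, with no scaling stated, and coordinates are printed as deposited. The column headed as a q-value was not used, since its values do not suit that scale.

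Regions were read once each, 2 mitochondrial regions were left out, and an overlap of 1 bp or more made a pair (Python 3.11.15, pandas 2.3.3, scipy 1.17.1). bedtools 2.31.1 counted the same 3046 overlapping pairs, and all of 3044 overlaps planted among 10145 simulated Endoderm+SB regions were found, with 0 false. Quintiles were set by rank of ChIP height within a list. Gene names were matched to RefSeq GRCm38.p6 symbols or single synonyms for 7922 of 7990 listed names (99.1%). No exon or intron annotation was used. Named were the 4 markers, per class the 6 genes with the highest tag enrichment in the highest height quintile, and per gene list up to 4 genes of each class by tag enrichment; other members are named where a class is listed out, and some members are counted but not reported by name here. Members and lists were chosen with earlier results of these data known. With 1 library per group no test across samples was made.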

Additional observations from a re-analysis of the deposited data

Results flagged for a closer look

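Mitochondrial regions appeared in the Endoderm+SB HEB list and in 0 of the other 5 ChIP lists, outside the regions compared above. The region chrM:10922-15772 held 69118 ChIP and 27409 background tags, and the region chrM:1-6520 held 73905 ChIP and 31743 background tags. Their tag enrichments were 2.52 and 2.33, and their ChIP heights 1925 and 1492 against background heights of 679 and 633. Together they held 6.26% of the ChIP tags in the Endoderm+SB HEB list.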

How the results depend on the processing

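Of 49 alternative values, 18 stayed within their counting interval or within 1.5 times and 31 moved; the cause was not tested beyond what each setting removes. Requiring 50% of the shorter region to overlap, or a region over the 5′ end for the promoter motifs, moved none of the values it was tried on. With peak positions within 250 bp, 25.8% of Endoderm+SB HEB and 15.2% of ESC HEB regions were shared; at equal list length 18.9% and 18.6%; in the upper 50% of each list 20.2% and 11.9%; and with a tag enrichment of at least 5, 23.1% and 14.5%. In quintiles of tag enrichment the lowest and highest shares were 36.7% and 20.7% in Endoderm+SB and 25.5% and 17.1% in ESCs. For Endoderm+SB, promoter-proximal and other shares were 34.0% and 27.7% with regions over the 5′ end, 17.7% and 19.6% at equal length and 24.4% and 18.9% in the upper 50%. For ESCs they were 49.7% and 13.2% over the 5′ end and 25.9% and 9.78% in the upper 50%, and the other regions gave 14.6% at equal length. Genes in both numbered 1730 at equal length and 947 in the upper 50%, Endoderm+SB only 1380 in the upper 50%, and ESCs only 1615 at equal length. In the upper 50% of unshared regions, Endoderm+SB regions were in Endoderm HEB in 41.5% and in ESC+SB HEB in 10.9%, and ESC regions in 28.0% and 89.6%. Counts of the 12 gene lists moved in 36 of 99 cases. No replicate could be left out, and no paired analysis was possible because each group had 1 library and no replicate numbers. A region missing from a list may lie under that list's height minimum.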

Other observations

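Some genes held many HEB regions in one group and 0 in the other; they were chosen after their values were seen. Gli3, a transcription factor of Hedgehog signalling, had 7 Endoderm+SB and 0 ESC regions, beside 4 in Endoderm HEB and 0 in ESC+SB HEB. Plekhm3 and Dennd1a had 7 Endoderm+SB regions each and 0 in ESCs, and Elp4, the neighbour of Pax6, had 6 and 0, with 0 in Endoderm HEB and 0 in ESC+SB HEB. Igsf21 had 0 Endoderm+SB and 26 ESC regions, with 10 in Endoderm HEB and 18 in ESC+SB HEB. Etv5, an ETS factor of ESCs, had 0 and 10, with 3 and 9, and Hoxd3, a homeobox gene, 0 and 11, with 2 and 10. The genes with the most shared Endoderm+SB regions were Pknox2, Gse1, Meis2, Tfap2b and Lmx1b, with 5 each.

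The highest tag enrichments at sites with no gene listed were 76.8 among unshared Endoderm+SB regions (chr14:115351054-115352182, 2535 ChIP and 33 background tags) and 227 among unshared ESC regions (chr17:28525116-28526081, 5215 and 23 tags). By chromosome, ESC sites were kept at 14.0% (chromosome 12) to 22.0% (chromosome 19), and Endoderm+SB sites were shared at 23.3% (chromosome 12) to 36.1% (chromosome 2).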
